A study of Fukomys damarensis and Heterocephalus glaber and Mus musculus with 160 samples.

Results

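The regions described here were naked mole-rat liver regions that held a peak of each of 4 transcription factors, CEBPA, FOXA1, HNF4A and RXRA. They were chosen from 8 peak lists, 1 for each factor in the liver of the animals NMR30 and NMR35. All peaks with a fold enrichment below 1000 were merged wherever they overlapped, which gave 353517 regions. Of these, 5106 (1.44%) held a peak of each factor in at least 1 of the animals and are called 4-factor regions. The other regions held peaks of 1 factor (299183), 2 factors (37293) or 3 factors (11935). Fold enrichment is the linear ratio of signal over background that the authors' peak caller gave to a peak.

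The series mapped histone marks in liver and heart of 4 rodent species by chromatin immunoprecipitation and sequencing (ChIP-seq) and comprised 160 samples, with peak lists for 116. In ChIP-seq an antibody recovers the DNA bound to a protein, and a peak is a place with more reads than the background. The naked mole-rats (Heterocephalus glaber) were 5 wild-type adult males with no treatment named, NMR30 aged 13 months, NMR31 aged 14, NMR32 aged 17, NMR34 aged 17 and NMR35 aged 15. Liver gave 5 libraries of each of H3K4me3, H3K27ac and H3K4me1, and heart gave 4 of H3K4me3, 3 of H3K27ac and 3 of H3K4me1, each library from 1 animal. Both tissues were whole organs, so fewer cells with a mark and a weaker mark per cell cannot be told apart. Tissue markers were not checked, because no annotation of the naked mole-rat build was used here, and no gene or base sequence is named for a region.

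CEBPA is a basic leucine zipper factor that drives hepatocyte genes of glucose and lipid metabolism. FOXA1 is a forkhead pioneer factor that can bind nucleosomal DNA and open it, HNF4A is a nuclear receptor that sets hepatocyte identity, and RXRA is the shared partner of receptors for bile acids, oxysterols and fatty acids. Places where several liver factors bind together are known from other mammals as enhancers and promoters of liver genes. H3K4me3 lies at active promoters, H3K27ac at active promoters and enhancers, and H3K4me1 at enhancers that are active or primed. Heart muscle is not known to use HNF4A, so the heart lists show what the same places carry in a tissue with another set of factors.

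The lists held between 26218 (RXRA of NMR30) and 122941 peaks (CEBPA of NMR30) for the factors and between 25868 and 180145 peaks for the histone marks, with liver H3K4me3 of NMR30 apart at 253457. How deeply each library was sequenced cannot be read from the lists. The limit on fold removed 31 peaks at 7 places, 2 of which overlapped a 4-factor region. The highest fold kept was 999 and the lowest left out was 1008.

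Support for the 4-factor regions was uneven between the animals. All 4 factors had a peak in NMR35 in 3378 regions (66.2%), in NMR30 in 1468 (28.8%) and in both animals in 814 (15.9%). A further 1074 (21.0%) reached 4 factors only by joining the animals. Counted over lists, 495 regions had a peak in 4 of the 8 lists, 935 in 5, 1384 in 6, 1478 in 7 and 814 in all 8. HNF4A was the factor with the widest gap, with a peak in 94.0% of the 4-factor regions in NMR35 and in 48.2% in NMR30. RXRA had a peak in 95.6% in NMR35 and 63.3% in NMR30, FOXA1 in 86.7% and 74.4%, and CEBPA in 80.3% and 80.7%.

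The peaks of the 4 factors lay on top of each other in most of these regions. At least 1 base was covered by peaks of all 4 factors in 4543 of 5106 regions (89.0%). Summits, the highest points of the peaks, of HNF4A and RXRA lay a median 67 bases apart in NMR35 and 58 bases apart in NMR30. FOXA1 and HNF4A summits were 80.5 and 54 bases apart. CEBPA summits lay farther from those of FOXA1 (87 and 104 bases), HNF4A (96 and 112 bases) and RXRA (92 and 105 bases). These values used the peaks that chose the regions and are descriptions.

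Regions with more factors were wider. The median width was 968 bases for 4 factors (310 to 19101), 790 for 3, 559 for 2 and 296 for 1, and the median number of peaks joined was 7, 4, 2 and 1. The median fold of the strongest RXRA peak of NMR35 was 9.01 in 4-factor regions, 6.34 with 3 factors, 5.13 with 2 and 4.34 with 1. For HNF4A of NMR30 these medians were 6.55, 5.30, 4.37 and 4.19. Width and fold follow from how the regions were chosen, so the marks below were read in a window of 500 bases at the midpoint of each region. A region was counted for a library when a peak overlapped that window by at least 1 base. The fixed window does not remove the link with width. In it, mean liver H3K27ac was at 6.46% of 1-factor regions up to 600 bases wide and at 51.9% of those from 1000 to 1500. Differences between classes below are therefore mixed with width.

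Liver H3K27ac was the most frequent mark of the 4-factor regions. The share was 54.1% in NMR30, 55.9% in NMR31, 55.4% in NMR32, 52.7% in NMR34 and 56.6% in NMR35, a mean of 54.9% ± 1.56 (SD, n = 5). In heart it was 23.1% in NMR31, 23.6% in NMR32 and 23.2% in NMR35, a mean of 23.3% ± 0.296 (n = 3). All 5 livers lay above all 3 hearts, and the difference was 31.6 percentage points. A two-sided exact permutation test gave p = 0.0357, the smallest that 5 livers and 3 hearts allow, and 0.0357 adjusted over the 3 marks.

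Liver H3K4me1 was found at 39.2% of 4-factor regions in NMR30, 39.0% in NMR31, 42.1% in NMR32, 43.8% in NMR34 and 42.9% in NMR35, a mean of 41.4% ± 2.19 (n = 5). The hearts gave 16.8% in NMR30, 10.3% in NMR31 and 7.79% in NMR32, a mean of 11.6% ± 4.65 (n = 3). The heart values followed the lengths of their lists, which held 110851, 63590 and 42957 peaks, and with equal numbers of histone peaks in each list the mean shares were 28.9% in liver and 8.79% in heart, 20.1 points apart. No heart reached the lowest liver, and the difference of 29.8 points had p = 0.0357 in the exact permutation test (adjusted p = 0.0357).

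H3K4me3 was the rarest mark in liver, while in heart its mean share was close to that of H3K4me1. Its liver share was 23.9% in NMR30, 20.8% in NMR31, 21.4% in NMR32, 21.7% in NMR34 and 24.1% in NMR35, a mean of 22.4% ± 1.49 (n = 5). In heart it was 12.7% in NMR31, 11.2% in NMR32, 9.56% in NMR34 and 12.7% in NMR35, a mean of 11.5% ± 1.49 (n = 4). The groups did not overlap, and the difference of 10.8 points had p = 0.0159, the smallest this exact permutation test allows (adjusted p = 0.0357). At widths of 300 to 1000 bases it was 7.22 points with the same adjusted p.

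Several animals gave both tissues, so the difference was also taken within animals. With this replicate block the liver excess was 10.5 points for H3K4me3 (4 animals), 32.7 for H3K27ac (3 animals) and 28.5 for H3K4me1 (3 animals), positive in every animal, and the adjusted p of the exact sign-flip permutation test was 0.25 for each, since so few pairs cannot reach the threshold. Without any 1 library the H3K27ac difference stayed between 31.2 and 32.2 points and the H3K4me1 difference between 27.9 and 32.4. The adjusted p of the exact permutation test was then 0.0571 to 0.0952, since the libraries left cannot reach 0.05.

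**Figure D1:**
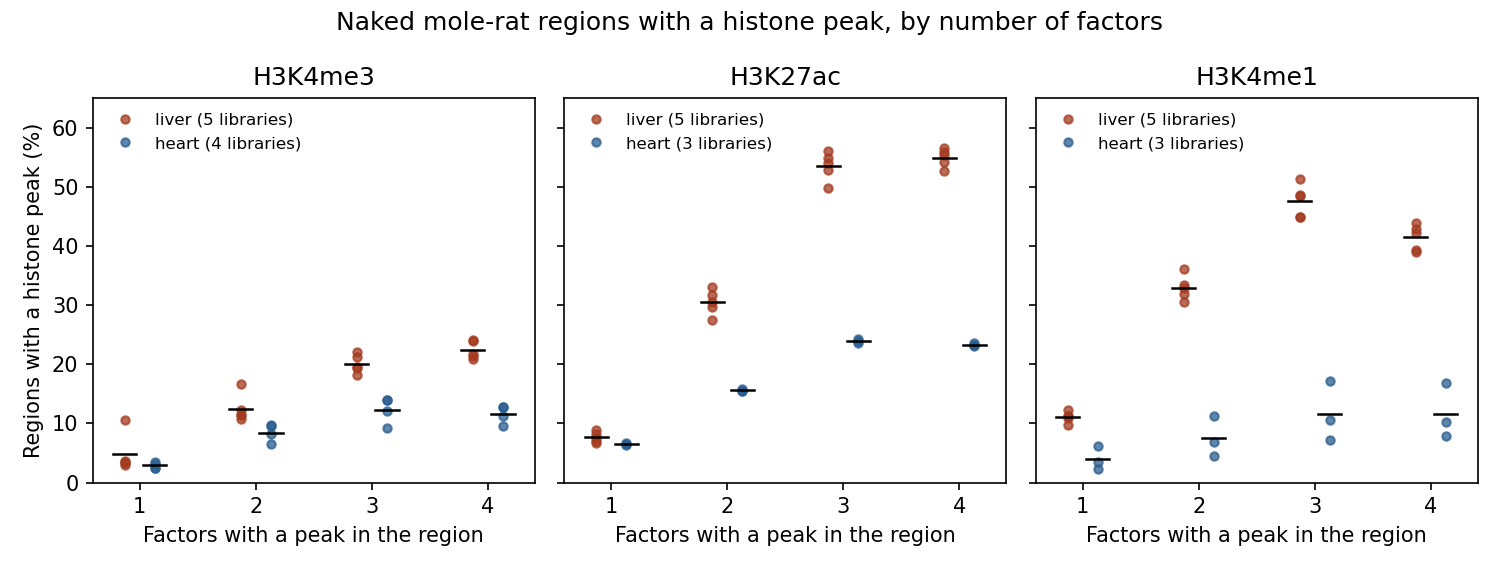
Percent of naked mole-rat regions whose 500-base window overlaps a peak (y axis), by number of factors with a peak in the region (x axis). Each point is 1 library, red for liver and blue for heart, and black lines are means. Mean liver H3K27ac is 7.67% with 1 factor, 53.5% with 3 and 54.9% with 4, and mean liver H3K4me1 is 47.7% with 3 factors and 41.4% with 4.

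Over all widths, the excess over 1-factor regions was larger in liver than in heart for all 3 marks. For H3K27ac, 4-factor regions exceeded 1-factor regions by 47.3 points in liver and 16.7 in heart, a difference of 30.5 points. The corresponding differences were 22.7 points for H3K4me1 and 8.99 for H3K4me3. Each had an adjusted p of 0.0357 in an exact permutation test of liver against heart libraries. On a log2 ratio scale, chosen after seeing the data, the differences were 1.02, 0.32 and 0.43 with adjusted p of 0.0536, 0.0536 and 0.333. In the same exact permutation test the unadjusted p stayed at 0.0357 for H3K27ac and H3K4me1. For H3K4me3 it rose to 0.333, which raised the adjusted values of the other marks above 0.05. Measured within animals the differences were 31.0, 21.9 and 10.1 points with an adjusted p of 0.25 in the exact sign-flip permutation test. When a factor was counted only if both animals had its peak, the H3K4me1 difference turned to -21.2 points and the H3K27ac difference was 3.8004, as liver H3K27ac then exceeded 1-factor regions by 4.79 points. The adjusted p stayed at 0.0357 for both in the exact permutation test. There the 1-factor class holds regions where any other factor was seen in only 1 animal. At widths of 300 to 1000 bases the differences were 4.99 points for H3K4me3, 20.8 for H3K27ac and 12.6 for H3K4me1. By width, liver H3K4me1 at 4-factor against 1-factor regions was 11.1% against 9.51% up to 600 bases and 34.4% against 34.3% from 600 to 800. From 800 to 1000 bases it was 48.8% against 50.2%, and from 1000 to 1500 it was 52.7% against 58.7%. Liver H3K27ac stayed higher with 4 factors, at 12.2% against 6.46% up to 600 bases and 72.4% against 51.9% from 1000 to 1500. These differences at equal width were not tested.

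Most of the difference between 1-factor and 4-factor regions was already present at 3 factors. Liver H3K27ac was found at 7.67% ± 0.929 of 1-factor, 30.5% ± 2.09 of 2-factor, 53.5% ± 2.36 of 3-factor and 54.9% ± 1.56 of 4-factor regions (SD, n = 5). The last step was 1.47 ± 0.842 points, higher in 5 of 5 livers. Liver H3K4me1 went 11.1% ± 0.96, 32.9% ± 2.09, 47.7% ± 2.73 and 41.4% ± 2.19. Its last step was -6.24 ± 0.779 points, lower in 5 of 5 livers. Liver H3K4me3 went from 4.76% ± 3.23 through 12.5% ± 2.39 and 20.1% ± 1.61 to 22.4% ± 1.49, with a last step of 2.32 ± 0.467 points that was positive in 5 of 5. With 5 libraries the exact sign-flip permutation test cannot go below p = 0.0625, which all 9 liver comparisons reached (adjusted p = 0.125 over 18 comparisons), so none passed 0.05.

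In heart the 3-factor and 4-factor regions were close. H3K27ac was found at 23.97% ± 0.32 of 3-factor and 23.3% ± 0.296 of 4-factor regions (n = 3), lower with 4 factors in 3 of 3 hearts. The H3K4me3 step was -0.783 ± 0.751 points (n = 4) and the H3K4me1 step -0.0028 ± 0.505 points (n = 3). The exact sign-flip permutation test cannot go below p = 0.125 for 4 libraries or 0.25 for 3. The direction of these heart steps turned under several settings.

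The order of the classes depended on how the factor peaks were counted. When a factor counted only if both animals had its peak, 814 regions kept 4 factors, and liver H3K27ac was then 10.1 points lower than with 3 factors and 17.6 points lower than with 2. Liver H3K4me1 was 21.2 points lower than with 1 factor and 30.6 points lower than with 2. With factor peaks of −log10 q of at least 4, liver H3K27ac was 5.27 points lower with 4 factors than with 3, and with all 4 factors in the same animal it was 2.30 points lower. These are differences of means over 5 livers, and in none did the test pass 0.05. Liver H3K4me1 was lower with 4 factors than with 3 under all 13 settings tried, with steps from -17.2 to -1.70 points.

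Liver H3K27ac and H3K4me1 were most frequent at members with a peak in 6 of the 8 lists, and H3K4me3 at those with a peak in all 8. Liver H3K27ac was found at 22.0% ± 1.34 of the members seen in 4 lists, 54.9% ± 1.83 in 5, 64.9% ± 1.84 in 6, 59.9% ± 1.59 in 7 and 49.2% ± 1.28 in all 8 (SD over 5 livers). Liver H3K4me1 ran 18.3%, 44.0%, 49.8%, 45.3% and 31.3%. H3K4me3 was at 11.2% with 4 lists, 21.0% with 5, 22.8% with 6, 22.7% with 7 and 29.5% with 8.

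**Figure D2:**
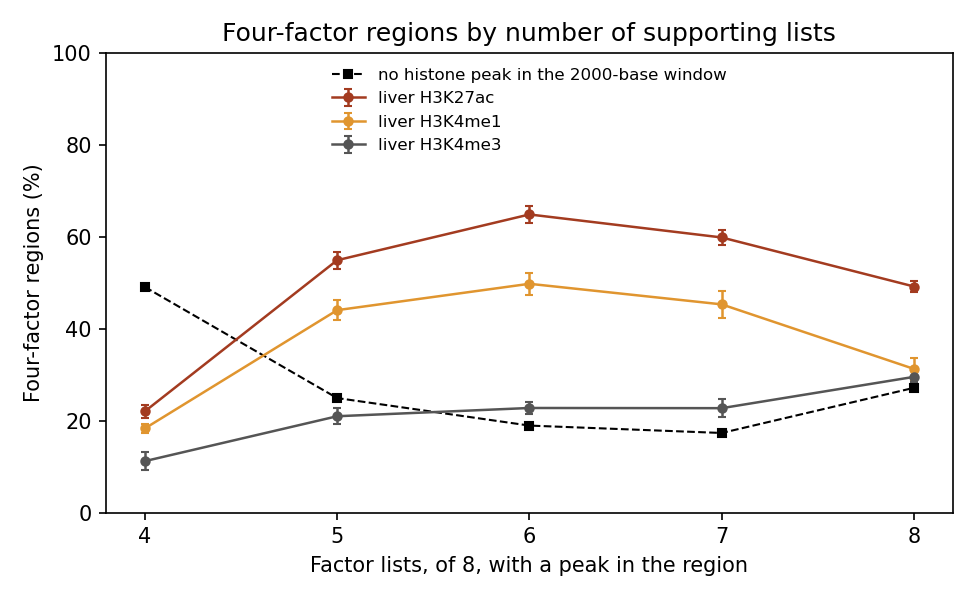
Percent of 4-factor regions with a liver peak of each mark (y axis; circles are means and bars the SD of 5 livers) by the number of factor lists, of 8, with a peak in the region (x axis). Squares show regions with no histone peak of any of the 25 liver and heart lists in a 2000-base window. H3K27ac is highest at 6 lists (64.9%) and H3K4me3 at 8 (29.5%), and unmarked regions are most frequent at 4 lists (49.1%).

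Marks also differed by which list had the peak, and how this relates to the number of lists was not tested. Over all regions, liver H3K27ac was found at 6.61% ± 0.514 of those with an HNF4A peak in NMR30, against 16.8% to 36.4% for the other 7 lists. Among 4-factor regions, the 2459 with an HNF4A peak in NMR30 had liver H3K27ac at 40.6% ± 1.59, and the 2647 without one at 68.3% ± 1.68. H3K4me1 was at 27.8% ± 1.79 and 54.0% ± 2.76. By the rule, all of the 2647 had an HNF4A peak in NMR35. CEBPA of NMR30 went the other way, with H3K27ac at 63.1% ± 1.65 of the 4120 members with its peak and at 20.8% ± 1.41 of the 986 without. FOXA1 of NMR30, like HNF4A of NMR30, was lower with its peak, 52.6% against 61.8% without. HNF4A of NMR35 was higher with its peak, 56.8% against 26.1%, as were CEBPA and FOXA1 of NMR35 and RXRA of both animals. With the HNF4A list of NMR30 left out, 4791 regions remained, liver H3K27ac was at 56.9% with 4 factors and 56.0% with 3, and liver H3K4me1 at 42.8% and 49.8%.

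Regions with the same number of factors differed by which factors they held. Of the 4 triples, CEBPA with HNF4A and RXRA had liver H3K27ac at 69.0% ± 2.45 (3152 regions) and CEBPA with FOXA1 and RXRA at 68.7% ± 2.86 (3896 regions), both above the 54.9% ± 1.56 of all 4 factors. The triple of CEBPA, FOXA1 and HNF4A had 34.4% ± 2.03 (1906 regions), and FOXA1, HNF4A and RXRA without CEBPA had 29.4% ± 2.25 (2981 regions). Among pairs, CEBPA with RXRA reached 50.5% ± 2.65 and FOXA1 with HNF4A 9.18% ± 1.03. H3K4me3 was highest at CEBPA with HNF4A and RXRA, 34.5% ± 1.64, against 22.4% ± 1.49 with all 4. These classes came from the same lists and their differences were not tested.

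**Figure D3:**
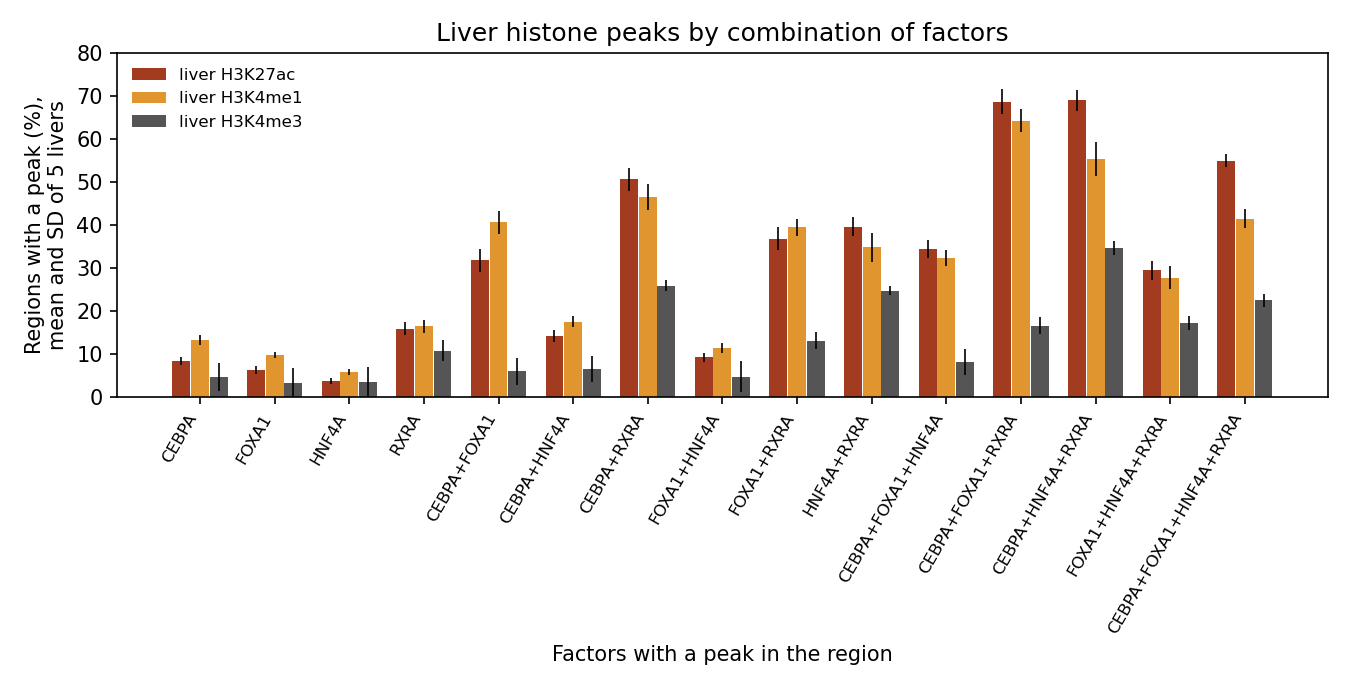
Percent of regions with a liver peak of H3K27ac (red), H3K4me1 (orange) and H3K4me3 (grey) on the y axis, for each of the 15 combinations of factors on the x axis. Bars are means and lines the SD of 5 livers. All 4 factors (right) stand at 54.9% for H3K27ac, below the 2 triples with CEBPA and RXRA (68.7% and 69.0%).

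Liver H3K27ac was more frequent in wider regions, up to 2000 bases. The mark was found at 12.2% ± 0.657 of the 798 members up to 600 bases wide, 40.6% ± 1.76 of 940 members from 600 to 800, 61.4% ± 2.00 of 967 from 800 to 1000, and 72.4% ± 1.93 of 1467 from 1000 to 1500 bases. It was 76.6% ± 1.41 from 1500 to 2000 bases (537) and 65.4% ± 1.45 above 2000 (397). At the same widths, 3-factor regions had H3K27ac at 26.6%, 50.2%, 64.6%, 71.8%, 75.2% and 66.4%. The 4-factor regions were thus lower below 1000 bases, by 14.4, 9.58 and 3.19 points, and above it they differed by 0.597, 1.38 and -0.959 points. Liver H3K4me1 was lower with 4 factors than with 3 in all 6 width groups, 11.1% against 27.6% in the narrowest and 49.7% against 53.7% in the widest. It was also lower than with 2 factors in each group up to 2000 bases. These shares were 11.1% against 21.2% in the narrowest and 48.6% against 66.8% from 1500 to 2000. Over all widths H3K4me1 was instead higher with 4 factors than with 2, 41.4% against 32.9%. Restricted to widths of 300 to 1000 bases, 2705 members remained and the steps from 3 to 4 factors were -6.68 points for H3K27ac and -2.13 for H3K4me3, the opposite sign to all widths.

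**Figure D4:**
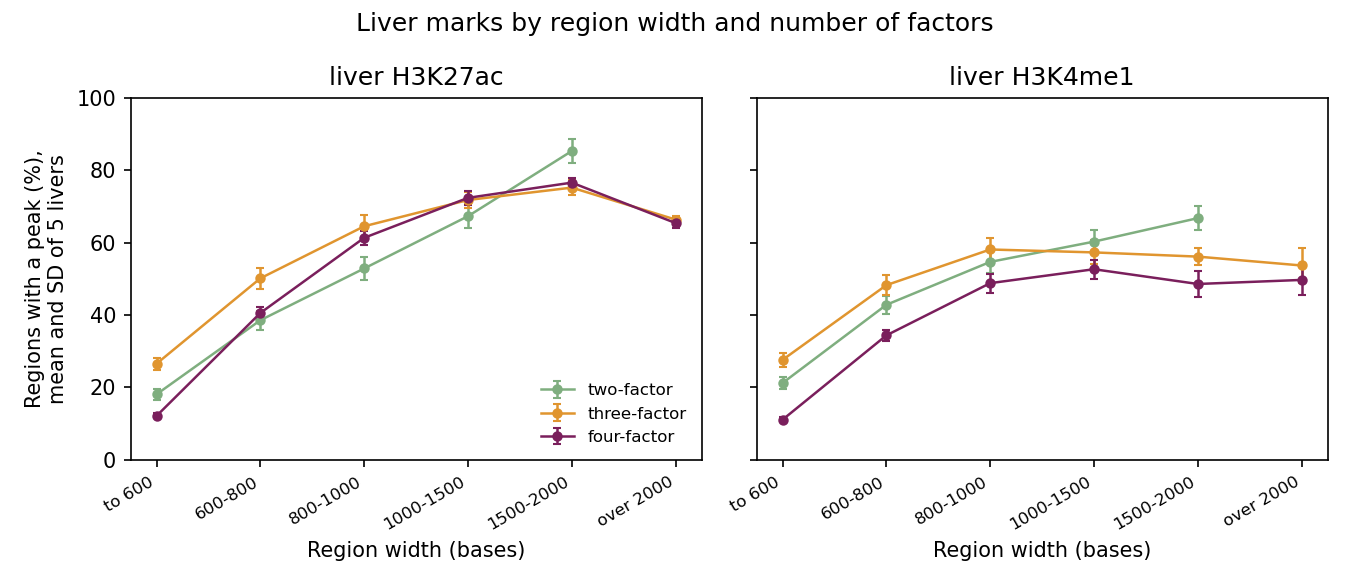
Percent of regions with a liver peak (y axis, mean and SD of 5 livers) by region width in bases (x axis, 6 groups) for regions of 2, 3 and 4 factors. Left, H3K27ac, where 4-factor regions start at 12.2% and reach 76.6%; right, H3K4me1, where they lie below 3-factor regions in all 6 groups.

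A mark was called for a region when at least 2 libraries of the tissue had a peak there. Liver H3K27ac was called in 2955 members (57.9%), against 13.8% of all 353517 regions. All 5 livers had it in 2457 members (48.1%), against 44.0% of 3-factor, 22.2% of 2-factor and 4.51% of 1-factor regions. Liver H3K4me1 was called in 47.8% (17.9% of all regions) and liver H3K4me3 in 23.1% (5.15%). In heart the calls were 22.9% for H3K27ac (8.05%), 11.9% for H3K4me3 (3.88%) and 10.3% for H3K4me1 (3.81%). All 6 shares were above those over all regions, most of which held 1 factor. In 3-factor regions, in the same order, the calls were 57.6%, 54.9% and 20.4% in liver and 23.6%, 13.1% and 10.1% in heart.

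From these calls, 1144 members (22.4%) had H3K27ac and H3K4me3 in liver, as promoters do, against 4.65% of all regions. In 3-factor regions this share was 19.9%. Active enhancers, with H3K27ac and H3K4me1 and without H3K4me3, were 1666 members (32.6%, against 8.25% of all regions and 35.2% of 3-factor regions). Primed enhancers, with H3K4me1 alone, were 228 members (4.47%), below the 6.91% over all regions and the 11.6% and 9.32% of 2-factor and 3-factor regions. H3K27ac alone was called in 145 members (2.84%, against 0.947% of all regions and 2.54% of 3-factor regions).

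Of the 1144 members with the promoter pair in liver, 511 (44.7%) had the same pair in heart and 427 (37.3%) had none of the 3 marks there. The same pair was in heart at 57.1% of such 3-factor regions and 64.3% of all such regions, and none of the 3 marks at 26.6% and 20.9%. Of the 1666 active enhancers of liver, 210 (12.6%) were active enhancers in heart, 5 had the promoter pair, and 1154 (69.3%) had none of the 3 marks. These shares were close to the 11.5% and 72.2% of such 3-factor regions and the 12.3% and 70.9% of all such regions, and neither difference was tested. H3K27ac was called in liver and absent from every heart library in 1661 members (32.5%, against 7.26% of all regions and 32.0% of 3-factor regions). It was called in both tissues in 1094 (21.4%, against 5.59% and 21.8%). The reverse, called in heart and absent from every liver library, was found in 62 members (1.21%). This was below the 1.94% over all regions and close to the 1.28% of 3-factor regions.

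Where a mark was present, its liver peaks ranked higher in their lists at 4-factor regions. The median percentile, within the list, of the fold of the strongest H3K27ac peak was 90.5 ± 1.54 at 4-factor regions, 84.7 ± 1.97 at 3-factor, 78.0 ± 2.17 at 2-factor and 68.7 ± 1.42 at 1-factor regions (SD, n = 5). For H3K4me1 it was 84.8 ± 1.72, 82.3 ± 1.87, 75.05 ± 1.58 and 65.7 ± 1.31. The step from 1 to 4 factors was 21.8 ± 0.482 percentile points for H3K27ac and 19.1 ± 1.23 for H3K4me1, and 15.2 ± 13.0 for H3K4me3, all positive in 5 of 5 livers. The exact sign-flip permutation test gave p = 0.0625 for each, the smallest possible (adjusted p = 0.0625). For H3K4me3 the step was 38.5 in NMR30, with its list of 253457 peaks, and 8.46 to 10.1 in the other 4 livers, a mean of 9.43 without NMR30. With equal numbers of histone peaks in each list the steps were 18.4 for H3K27ac, 7.01 for H3K4me3 and 4.27 for H3K4me1. With each factor in both animals the H3K4me1 step was 8.87. Heart peaks also ranked higher at 4-factor than at 1-factor regions, and this was not tested. Their mean percentiles were 85.2 and 73.3 for H3K27ac, 82.9 and 69.4 for H3K4me3, and 67.7 and 58.1 for H3K4me1.

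The percentiles above are ranks of the authors' fold, so the fold has the same order within a list and adds no separate support. At marked 4-factor regions the median fold of liver H3K27ac was 18.6 ± 2.11 over 5 livers, and at marked 1-factor regions 8.23 ± 0.796. Liver H3K4me1 had 8.09 ± 0.47 and 6.09 ± 0.237. Heart H3K27ac at the same places had 10.3 ± 0.338 and 7.46 ± 0.0301 (n = 3). Folds of separate lists were not normalised to each other, so liver and heart are given side by side without a comparison.

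In liver, H3K27ac and H3K4me1 peaks covered the flanks more often than the midpoint of the regions. H3K27ac covered the midpoint base of 37.4% ± 2.38 of 4-factor regions, 45.2% ± 2.55 at 300 bases on either side and 15.7% ± 2.16 at 3000 bases (SD, n = 5). H3K4me1 covered 20.9% ± 2.14 at the midpoint and 35.1% ± 2.54 at 500 bases. In 5 of 5 livers the midpoint was lower than the flank, by 7.81 ± 0.59 points for H3K27ac at 300 bases and by 14.2 ± 1.87 points for H3K4me1 at 500 bases. Heart H3K27ac had no such dip at 500 bases in 3 of 3 hearts, with 17.8% ± 0.753 at the midpoint and 16.2% ± 0.532 at 500 bases. At 300 bases 1 of 3 hearts was lower at the midpoint, and the mean was 0.291 ± 0.452 points higher there. The dip was shared by 3-factor regions, where liver H3K27ac was 8.25 ± 0.793 points lower at the midpoint than at 300 bases. Liver H3K4me3 was higher at the midpoint than at 500 bases in 5 of 5 livers, but lower than at 300 bases in 4 of 5, with a mean difference of -0.186 ± 0.729 points. These values are coverage by called peaks, not read density.

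**Figure D5:**
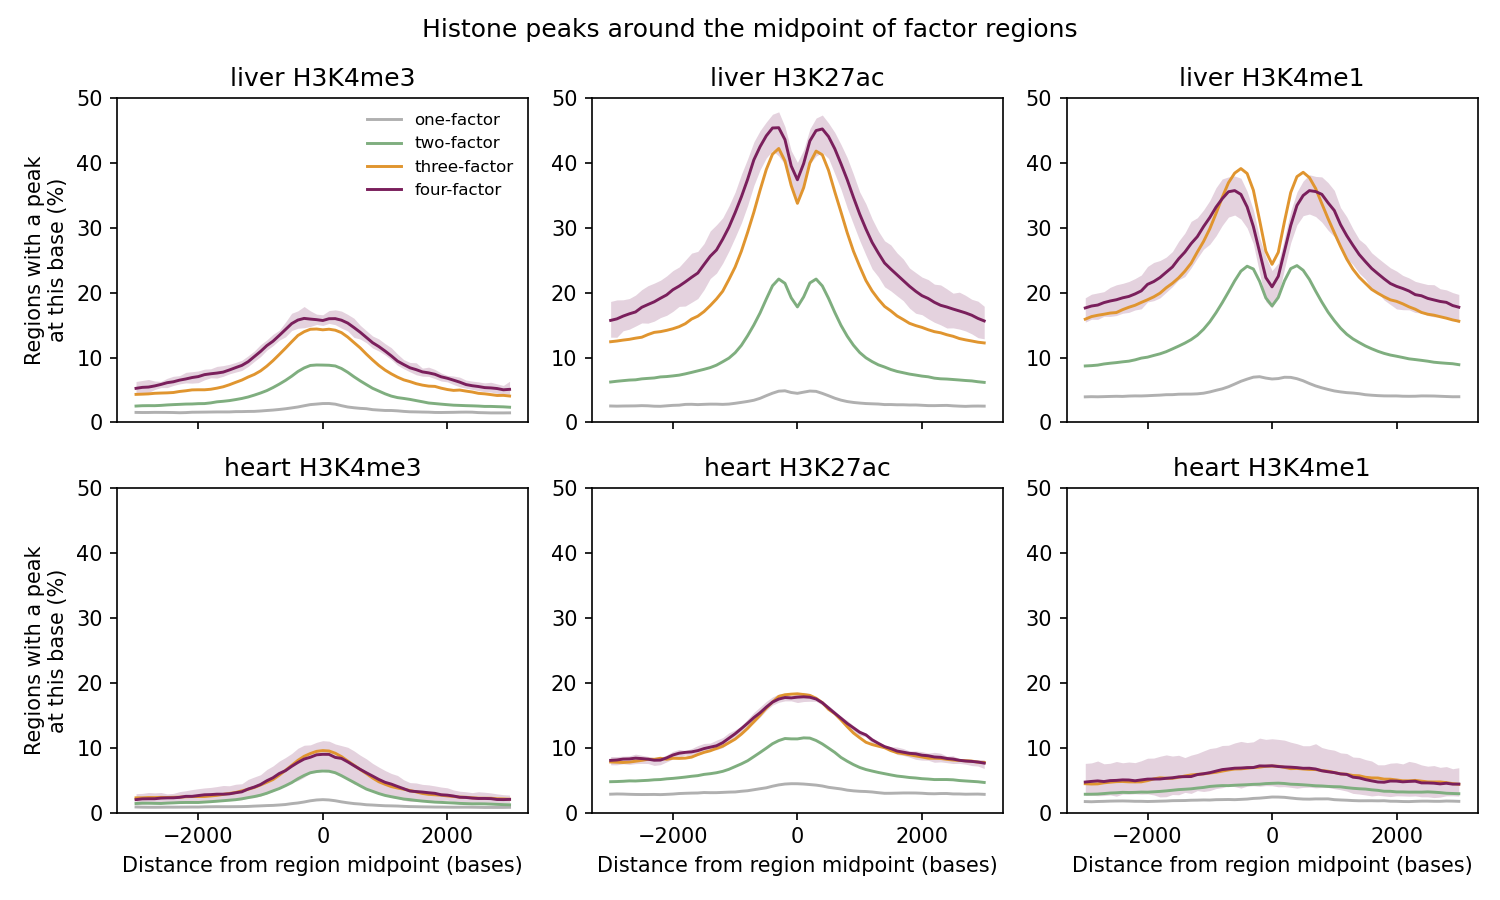
Percent of regions with a histone peak over a given base (y axis, mean over libraries) by distance from the region midpoint in bases (x axis), for regions of 1 to 4 factors. The shaded band is the range over libraries for 4-factor regions. Liver H3K27ac of 4-factor regions dips to 37.4% at the midpoint between flanks of 45.2%, and heart H3K27ac is highest near the midpoint at 17.8%.

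A sizeable group of 4-factor regions carried no histone peak at all. In the 500-base window 1511 members (29.6%) had no peak of any of the 25 liver and heart lists, against 63.5% of all regions and 24.9% of 3-factor regions. In a 2000-base window 1215 members (23.8%) had none, against 47.8% of all regions and 18.3% of 3-factor regions. These 1215 had a median width of 661 bases, against 1062 for the 3891 with a peak. The median fold of their strongest HNF4A peak was higher, 8.08 against 7.83. It was lower for FOXA1 (8.23 against 8.36), CEBPA (6.66 against 9.46) and RXRA (8.35 against 9.24). HNF4A of NMR30 had a peak in 61.9% of them and in 43.9% of the marked members, and CEBPA of NMR30 in 57.7% and 87.9%. They lay somewhat more often on short scaffolds, with 57.1% against 68.4% on scaffolds whose last peak lies beyond 1000000 bases.

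Single regions were named by fixed rules, and their positions refer to build HetGla_1.0, counted from 1. Marks are those of the 500-base window unless the whole region is named. The first 5 are those with the highest ranks of all 8 factor peaks. The region on scaffold JH168792.1 from 53175 to 55581 had HNF4A folds of 99.1 in NMR30 and 123 in NMR35 and CEBPA folds of 71.3 and 40.4. It carried all 3 marks in 5 of 5 livers and none in any heart, with H3K4me3 folds of 46.4, 118, 25.01, 153 and 196 in NMR30, NMR31, NMR32, NMR34 and NMR35. Its H3K27ac folds were 38.1, 22.0, 10.1, 19.2 and 24.1. All 3 marks were thus present in every liver and absent from every heart.

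The region on JH169329.1 from 1560676 to 1562405, with HNF4A folds of 78.8 and 112, had H3K27ac in 5 of 5 livers at folds of 40.6 to 92.4 and H3K4me3 at 58.7 to 137. It had no H3K4me1 peak in any liver and no peak in any heart. On JH166860.1, from 10766 to 14087, H3K27ac was at folds of 42.0 to 77.7 in 5 livers and 6.00 to 10.3 in 3 hearts, and H3K4me1 was in 5 livers and 2 of 3 hearts. The region on JH174081.1 from 86719 to 87906 had H3K27ac in 5 livers at 9.65 to 32.8 and H3K4me3 in 5 livers at 3.77 to 47.6, with no heart peak.

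The region on JH168592.1 from 363071 to 364173 had the strongest factor peaks of the 5 for FOXA1, HNF4A and RXRA and no histone peak of any library in its window. Its HNF4A folds were 357 in NMR30 and 936 in NMR35, FOXA1 442 and 327, RXRA 203 and 653, and CEBPA 58.9 and 30.4. The HNF4A value of NMR35 lies just inside the limit of 1000 on fold. So 4 of the 5 regions were marked in all livers, and the 1 with the highest folds of those factors was not marked.

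The 3 strongest regions with no histone peak anywhere in them, of 1401 such members, were higher in NMR35 than in NMR30. On JH173573.1, from 3424269 to 3425757, the folds in NMR35 were 83.2 for CEBPA, 88.6 for FOXA1, 79.8 for HNF4A and 94.2 for RXRA, and in NMR30 13.9, 19.9, 15.6 and 18.003. On JH170395.1, from 379351 to 380427, they were 50.5, 59.98, 43.1 and 43.8 in NMR35 and 6.32, 7.34, 6.34 and 5.38 in NMR30. On JH169435.1, from 20171 to 21379, HNF4A reached 627 in NMR35 and 34.2 in NMR30. On the first scaffold the folds of the 4 factors in NMR35 all lay between 79.8 and 94.2.

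H3K27ac in all 3 hearts and no liver was found in 46 members (0.901%), no more often than in all regions (1.14%). The strongest was on JH172615.1 from 1819862 to 1820598, with heart H3K27ac folds of 9.93, 21.8 and 14.5 in NMR31, NMR32 and NMR35 and H3K4me3 in 4 of 4 hearts at 5.40 to 36.2. Its liver factor folds were 109 and 228 for HNF4A and 107 and 93.7 for FOXA1, yet no liver library had a histone peak there. On JH172935.1, from 149884 to 151564, heart H3K27ac folds were 4.98, 19.7 and 5.17. On JH168154.1, from 512129 to 512764, they were 18.8, 12.9 and 4.15, with H3K4me3 in 3 of 4 hearts.

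The same rule was applied to Damaraland mole-rat liver (Fukomys damarensis, wild-type adults, 4 males and 1 female, with estimated ages of 36 or 48 months) for comparison. Its 7 lists came from DMR1 and DMR4, HNF4A from DMR4 only. They gave 6103 4-factor regions of 205347 (2.97%), with a median width of 975 bases. H3K27ac was found at 76.3% in DMR1, 76.3% in DMR2, 72.7% in DMR3, 77.1% in DMR4 and 74.6% in DMR6, all above the highest naked mole-rat liver at 56.6%. The difference, naked minus Damaraland mole-rat, was -20.4 points (exact permutation p = 0.00794, adjusted p = 0.0119 over the 3 marks). For H3K4me1, at 52.7% to 71.1% in the 5 Damaraland livers, the difference was -21.6 points with the same p values. The gap was not limited to 4-factor regions: H3K27ac was at 53.5% of naked and 77.2% of Damaraland mole-rat 3-factor regions, and at 30.5% and 56.9% of 2-factor regions.

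H3K4me3 was at 15.3% in DMR1 and 22.2% in DMR4, against 20.8% to 24.1% in the naked mole-rat, a difference of 3.62 points (exact permutation p = 0.381, adjusted p = 0.381, smallest possible p = 0.0952). It was 0.159 points without DMR1 and 7.07 without DMR4. In the Damaraland livers too H3K4me1 was lower at 4-factor than at 3-factor regions, with 63.1% ± 7.30 against 72.1% ± 7.72 (n = 5). H3K27ac, at 75.4% against 77.2%, and H3K4me3, at 18.8% against 21.5% (n = 2), were lower there too, the opposite direction to the naked mole-rat steps of 1.47 and 2.32 points. Species, genome build, age, and the number of factor lists cannot be told apart in this comparison. Sex also differed, as the Damaraland animals included a female. Leaving out each library in turn gave differences of -21.1 to -19.9 points for H3K27ac and -24.2 to -19.6 for H3K4me1.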

How the data were processed

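Peak lists were deposited as 1 list per library, and MACS2 is named in the submitters' processing notes with no version or role. For the aligner, no name is given in the sources used here. As deposited by the authors, fold is a linear ratio of signal to background, and the deposited −log10 q-value had a lowest value of 1.30. Each deposited list also gives the offset of a peak's summit, in bases. The naked mole-rat build is HetGla_1.0 per the file names of the histone lists. The factor lists name only the species and use the same scaffold names.

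The members, gene lists, settings and rules were chosen with earlier results of these data known. Overlapping factor peaks of fold below 1000 were merged. Marks were read as an overlap of at least 1 base with a 500-base window at the region midpoint (2000 bases as an alternative). The animal was the replicate: liver and heart, and the species, were compared by two-sided exact permutation tests, classes and ranks by two-sided exact sign-flip permutation tests over libraries, with Benjamini-Hochberg adjustment in families of 3 tissue, 18 class, 3 class-by-tissue, 3 rank and 3 species comparisons at 0.05. Tissues are paired where the labels name the same animal, as they do for 4 animals with H3K4me3 and 3 with each other mark. Named regions were the 5 of highest lowest percentile over the 8 lists, and the 3 unmarked and 3 heart-only regions of highest lowest percentile over the 4 factors, taking the better animal for each. Merging, overlap and tests were checked on simulated data. Python 3.11.15, NumPy 2.4.6, pandas 2.3.3, SciPy 1.17.1 and Matplotlib 3.10.9 were used. Lists of the guinea pig and mouse, other factors and Damaraland heart were not used here, nor was 1 sample whose labels name different species.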

Additional observations from a re-analysis of the deposited data

Results flagged for a closer look

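The liver H3K4me3 library of NMR30 stood apart from the other 4 livers in the shares of 1-factor regions (10.5%, against 2.91% to 3.60%) and of 2-factor regions (16.6%, against 10.7% to 12.2%) by Dixon's criterion, but not in the share of 4-factor regions. There were 253457 peaks in its list and 27591 to 48726 in those of the other 4 livers. Of 24 groups of libraries examined, these were the 2 with a far value, and chance alone gives about 1 at this criterion.

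Over all widths, the excess of 4-factor over 1-factor regions differed between liver and heart in all 3 marks. The differences were 8.99 points for H3K4me3, 30.5 for H3K27ac and 22.7 for H3K4me1 (adjusted p = 0.0357 each, exact permutation tests).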

How the results depend on the processing

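The number of 4-factor regions was 5106, and it moved to 814 with each factor in both animals, 3356 on scaffolds with a last peak beyond 1000000 bases and 2705 at widths of 300 to 1000 bases. It was 3600 with factor peaks of −log10 q of at least 4 and 4032 with all 4 factors in the same animal. The tissue and class-by-tissue differences kept their direction under all settings but 1. After adjustment they lost the 0.05 threshold in animals with no factor list, with the replicate block and within series of library identifiers. They also lost it without 1 library for H3K27ac and H3K4me1, and, for class by tissue, as log2 ratios. Apart from the log2 ratios, these settings leave too few arrangements of libraries for an exact p below 0.05. As log2 ratios, only the unadjusted p of H3K4me3 rose. In the order H3K4me3, H3K27ac and H3K4me1, histone libraries of animals with no factor list gave 10.2, 31.3 and 32.6 points between tissues and 9.64, 30.3 and 24.5 for class by tissue (adjusted p = 0.2, exact permutation tests). The paired fit with the replicate block gave 10.5, 32.7 and 28.5, and 10.1, 31.0 and 21.9 (adjusted p = 0.25, exact). Within series of library identifiers (do or vl, which the labels do not explain) the values were 10.6, 31.7 and 28.4, and 8.18, 30.6 and 21.9 (adjusted p = 0.0833, exact). Log2 ratios, an alternative chosen after seeing the data, gave 0.43, 1.02 and 0.32 for class by tissue. Without 1 library, H3K27ac ranged from 31.2 to 32.2 between tissues and from 30.4 to 30.8 for class by tissue, H3K4me1 from 27.9 to 32.4 and from 21.7 to 24.2. The H3K4me3 calls held without any 1 library.

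Reversals were these, in points. With each factor in both animals, class by tissue for H3K4me1 was -21.2 (adjusted p = 0.0357, exact permutation test), and for H3K27ac, with no reversal, 3.8004. Also there, 4 minus 3 factors was -10.1 for liver H3K27ac and 5.28 for heart H3K4me3, 4 minus 2 was -17.6 (liver H3K27ac), -30.6 (liver H3K4me1), -3.11 (heart H3K27ac) and -2.68 (heart H3K4me1), and 4 minus 1 was -21.2 (liver H3K4me1). With factor peaks of −log10 q of at least 4, liver H3K27ac 4 minus 3 was -5.27, and 4 minus 2 was -8.72 for liver H3K4me1 and -0.34 for heart H3K4me3. With all 4 factors in the same animal, liver H3K27ac 4 minus 3 was -2.30. At widths of 300 to 1000 bases, 4 minus 3 was -2.13 for liver H3K4me3 and -6.68 for liver H3K27ac, and heart H3K4me3 4 minus 2 was -0.173. The heart steps from 3 to 4 factors turned positive over the whole region (H3K27ac 0.468, H3K4me1 1.46), with 50% of the shorter interval overlapping (H3K4me3 0.0457, H3K27ac 1.12, H3K4me1 2.01) and on long scaffolds (H3K27ac 0.163, H3K4me1 0.691). For heart H3K4me1 this step was also 0.0537 with stricter histone peaks, 0.348 with equal numbers of histone peaks, 0.144 in animals with no factor list, 0.0913 without the HNF4A list of NMR30, 0.0153 as a log2 ratio, and from -0.295 to 0.144 without 1 library. The causes were not tested. Rank steps and species differences kept their direction under every alternative run, and the H3K27ac and H3K4me1 species differences also their side of 0.05, which the rank tests cannot pass. Depth is unknown, so a region with no peak may hold a mark too weak for its library.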

Other observations

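The 4-factor regions lay on 1684 scaffolds, and 764 were alone on theirs. For the others the median distance to the nearest 4-factor region was 54528 bases, and 1040 members (20.4%) lay within 10000 bases of another. Runs of at least 5 such regions, each within 10000 bases of the next, numbered 18 and held 114 members. These counts were not set against other regions, and clustering was not tested. The run on scaffold JH165776.1 from 4137789 to 4155987 had liver H3K27ac called in all 5 of its regions and heart H3K27ac in 2. On JH171333.1, from 550203 to 569231, 5 of 7 regions had liver H3K27ac and none had heart H3K27ac. On JH167037.1, from 851669 to 873671, liver H3K27ac was called in 5 of 5. The scaffold with the most members, JH167841.1, held 39, and 18 of these had a histone peak within the 2000-base window. Its longest run, 13 regions from 144049 to 203446, had neither liver nor heart H3K27ac called in any region, and its widest region spanned 10560 bases. The other runs of JH167841.1 had neither called in any region, nor had the runs on JH166743.1 (6 regions) and JH167478.1 (5 regions). What sets these runs apart was not tested.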
